A study of Mus musculus with 6 samples.

Results

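The tricarboxylic acid (TCA) cycle oxidises acetyl-CoA in the mitochondrial matrix and passes the electrons to the respiratory chain. The genes described here encode its enzymes, together with the pyruvate dehydrogenase (PDH) complex that feeds it, the kinases and phosphatases that switch that complex off and on, the carriers that bring pyruvate into the matrix, pyruvate carboxylase, and the enzymes of the malate-aspartate shuttle. They were found by symbol: all 31 genes of the list matched a row of the deposited expression table of 52550 genes by Ensembl identifier, and all 31 passed the filter on low values that 14656 genes passed. The list was set by pathway and leaves out complex II and the PDH kinase gene Pdk4, among others; related genes outside it are given at the end for comparison.

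RNA came from whole hearts of C57BL/6 mice aged 10 weeks, 2 weeks after permanent ligation of the left anterior descending coronary artery at 8 weeks of age. Wild-type mice (WT) gave 3 libraries, and mice of the genotype lncRNA-DRR-/- (KO), which lack a long noncoding RNA, gave the other 3. Every heart was infarcted, so KO against WT is a comparison within the infarcted heart, and no uninjured or sham heart was analysed here. The labels do not say how the deletion was made, what sex the mice had or at what time of day hearts were taken, and the RNA is that of the whole organ, scar included.

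The heart is the organ in which this pathway is worked hardest: cardiomyocytes are packed with mitochondria and draw nearly all of their ATP from oxidation of fatty acids, lactate and glucose. PDH decides how much glucose and lactate carbon enters the cycle, and PDH kinases shut it when fatty acids are burnt. The malate-aspartate shuttle carries the reducing power of glycolysis across the inner mitochondrial membrane by means of a cytosolic and a mitochondrial malate dehydrogenase and a cytosolic and a mitochondrial aspartate aminotransferase.

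Values are FPKM, in which fragments are divided by the length of the transcript and the size of the library, so levels of different genes can be set side by side. Approximate depths were 5200000 to 9400000 fragments per library. KO replicate 3 had Xist, the RNA of the inactive X chromosome, at 25.6 FPKM against 0.0742 FPKM or less in the other libraries, and the Y-linked Ddx3y at 0.0280 FPKM against 13.0 FPKM or more. These genes have the female pattern in that heart and the male pattern in the other 5. KO replicate 2 stood apart by its marker genes: its cardiomyocyte markers had the lowest median deviation of the series and its atrial markers the highest. Other libraries stood apart in other markers: the summed FPKM of 3 liver markers was 43.9 in WT replicate 3 and 1.51 or less elsewhere, and WT replicate 1 had the highest median log2 deviation of B and plasma cell (1.5), red cell (0.75) and macrophage (0.35) markers. The deleted RNA was not matched to a row, so it gave no check of genotype. Neither litters nor batches are named in the labels, and each p-value is set by how far these 6 hearts spread, which may be technical in part.

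Promoters of 5 members are shown because the members rose and fell together from heart to heart, and because Idh2 departed from Mdh1, while Idh1 ran against the rest. The sequences are the 250 bases before the RefSeq transcription start, written 5′ to 3′ along the gene's own strand on build GRCm38.p6. In the GENCODE M21 annotation Mdh1 extends to position 21572367, so its whole window lies inside the annotated gene. Idh2 (to 80115392) and Idh1 (to 65186500) reach into part of their windows. In the first 4 windows capitals mark each CCAAT box, the pentamer bound by the factor NF-Y, and in the window of Pdk2 they mark the E-box CACGTG, the hexamer bound by CLOCK and BMAL1 among other factors, with its CCAAT boxes left in lower case. For Idh1 and Pdk2 the table holds 2 windows each, and 1 is shown.
Idh2 (chr7:80115351-80115600, minus strand): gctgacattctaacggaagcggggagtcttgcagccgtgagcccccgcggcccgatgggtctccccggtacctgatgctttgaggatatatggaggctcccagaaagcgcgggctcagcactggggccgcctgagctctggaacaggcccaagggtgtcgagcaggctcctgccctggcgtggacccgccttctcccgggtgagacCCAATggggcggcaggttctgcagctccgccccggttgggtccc
Mdh1 (chr11:21571935-21572184, minus strand): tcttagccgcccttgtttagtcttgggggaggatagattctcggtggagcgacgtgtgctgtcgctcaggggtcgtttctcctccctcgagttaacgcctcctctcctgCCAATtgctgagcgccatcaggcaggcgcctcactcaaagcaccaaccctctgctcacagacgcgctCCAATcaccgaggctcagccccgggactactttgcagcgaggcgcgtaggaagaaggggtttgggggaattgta
Cs (chr10:128337477-128337726, plus strand): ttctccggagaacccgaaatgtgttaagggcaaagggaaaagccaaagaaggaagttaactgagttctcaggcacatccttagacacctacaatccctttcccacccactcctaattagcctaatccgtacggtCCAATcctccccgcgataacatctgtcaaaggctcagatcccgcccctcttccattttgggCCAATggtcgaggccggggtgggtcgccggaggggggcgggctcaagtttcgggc
Idh1 (chr1:65186480-65186729, minus strand): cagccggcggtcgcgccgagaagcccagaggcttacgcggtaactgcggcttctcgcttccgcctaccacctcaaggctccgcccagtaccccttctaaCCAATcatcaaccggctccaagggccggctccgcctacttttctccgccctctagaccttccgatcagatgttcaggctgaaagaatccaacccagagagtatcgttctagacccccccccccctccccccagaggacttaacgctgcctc
Pdk2 (chr11:95041372-95041621, minus strand): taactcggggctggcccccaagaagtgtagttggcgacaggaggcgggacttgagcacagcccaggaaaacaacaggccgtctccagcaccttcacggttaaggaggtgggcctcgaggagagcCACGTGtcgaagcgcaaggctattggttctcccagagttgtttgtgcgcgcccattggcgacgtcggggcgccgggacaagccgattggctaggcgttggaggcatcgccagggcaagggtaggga

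Of the 31 members 29 had a window in the RefSeq table; Idh3a and Pdp1 had none. CCAAT or its complement ATTGG was present in 17 of the 29 (58.6%), against 37.5% of the 27025 genes with a window of this length. All members passed the filter on low values, while the 27025 genes were not limited to genes that did. The shares given here are therefore not matched for expression in the heart. CACGTG, which reads the same on both strands, was present in 5 of 29 (17.2%, Ogdh, Pdk2, Pdp2, Pdpr and Pcx) against 6.86% of all genes. Searched on both strands, TCAAGGTCA (estrogen-related receptors), the palindromic NRF1 motif and TTATGTAA (the D-box of DBP) were in 0 of 29 windows, against 0.422%, 0.877% and 0.977% of all genes. A match is a string of letters and not a measured binding site. The part of these motifs in the members' levels was not tested.

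No member of the module was called as different between KO and WT hearts. By limma, a linear model with variance shared across genes, 0 of 31 members rose and 0 fell at a Benjamini-Hochberg adjusted p under 0.05, where 0.375% of all tested genes were called (55 of 14656; 0.273% rose and 0.102% fell). Before adjustment, 0 members had a limma p under 0.05, against 8.48% of all tested genes. The smallest adjusted p was 0.623, for Aco1. On the log2(FPKM + 0.5) scale, used for every log2 difference here as KO minus WT, the median over the members was -0.10 and over all tested genes -0.00. The members ran from -0.42 for Idh2 to 0.30 for Pdk3. Differences were below 0 in 23 members and above 0 in 8, against 50.7% below 0 over all genes, and this lean turned round when 1 library was left out: without KO replicate 2 the median was 0.09, with 21 members above 0 and 10 below. The plot of differences shows each member with its interval.

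**Figure D1:**
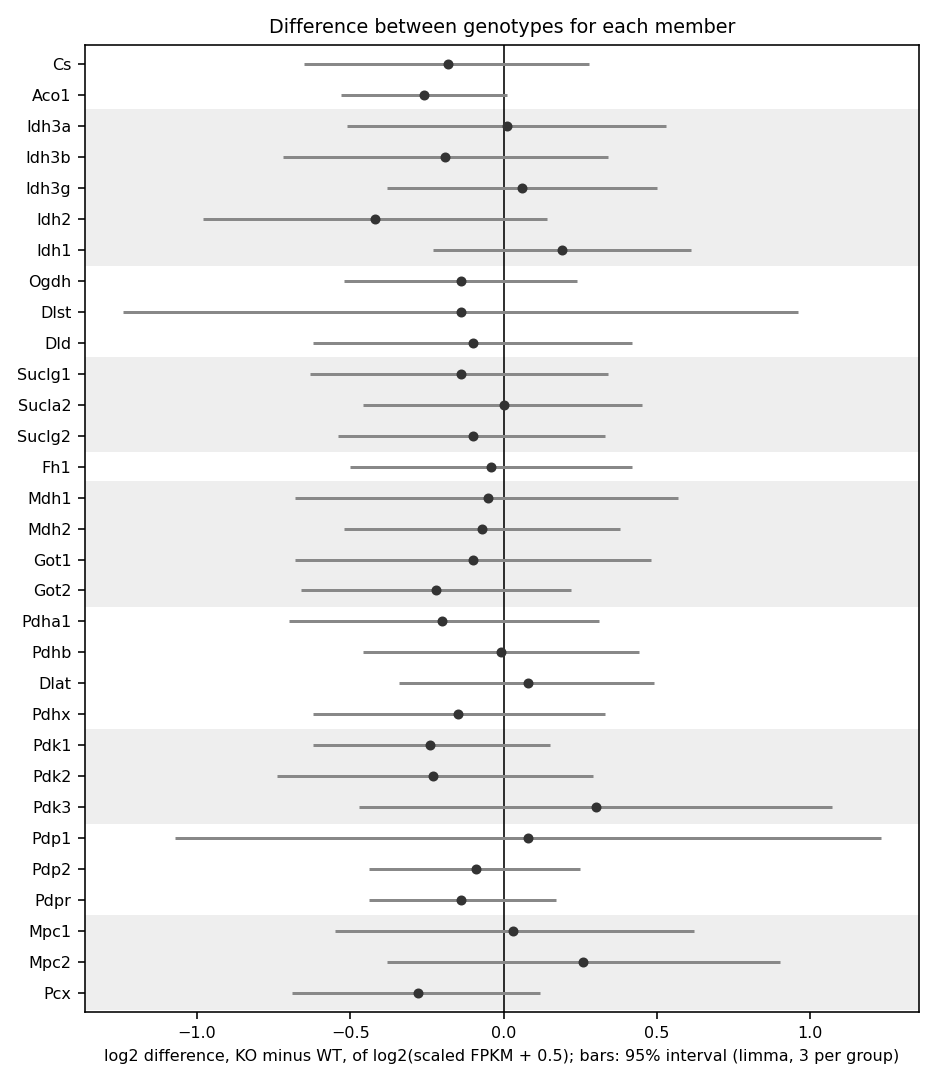
Log2 difference, KO minus WT, of log2(scaled FPKM + 0.5) on the horizontal axis for each of the 31 members (3 hearts per group), with bars for the 95% interval from limma and grey bands that separate the roles. Every interval contains 0, and the widest belong to Pdp1 and Dlst.

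Levels spanned more than 2 orders of magnitude on the FPKM scale, from Pdp2 (mean over the 6 libraries 2.44 FPKM) to Mdh1 (374.4 FPKM). After Mdh1, the cytosolic malate dehydrogenase, came Idh2 (278.3 FPKM), the NADP-dependent mitochondrial isocitrate dehydrogenase, then Ogdh (239.0 FPKM), the first subunit of the 2-oxoglutarate dehydrogenase complex, and Pdha1 (222.2 FPKM), the catalytic subunit that PDH kinases phosphorylate. Pdk3, Pdp1, Pdp2, Pdpr, Pcx and Aco1 lay at the other end, as the plot of levels shows.

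**Figure D2:**
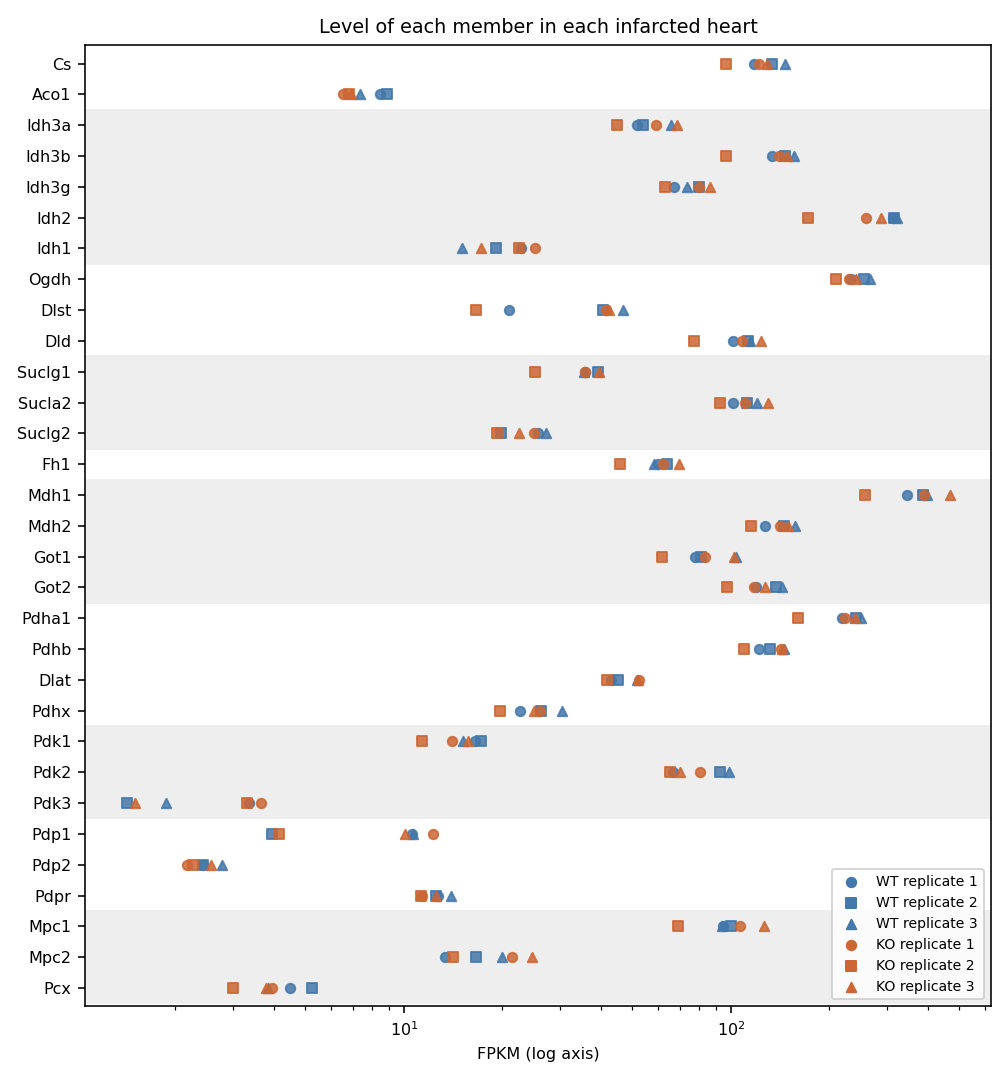
FPKM on a log axis for the 31 members, by role (grey bands), with a point for each of the 6 hearts (blue WT, orange KO, shapes for replicates 1 to 3). WT and KO points interleave in nearly every row, and the orange square of KO replicate 2 is the leftmost point in 25 of 31.

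Citrate synthase, Cs, makes citrate from acetyl-CoA and oxaloacetate and is the usual marker of mitochondrial content. It stood at 118.0, 133.1 and 146.1 FPKM in WT replicates 1 to 3 and at 122.0, 96.6 and 128.8 FPKM in KO replicates 1 to 3. Only KO replicate 2 lay below the WT range, and the difference was -0.18 ± 0.20 (SE, limma adjusted p = 0.855). Aco1, the cytosolic aconitase that also serves as an iron-regulatory protein, was the member of smallest p. Its levels were 8.43, 8.90 and 7.35 FPKM for WT against 6.51, 6.78 and 6.87 FPKM for KO, so the groups did not overlap. The log2 difference of -0.26 ± 0.12 was not called (95% interval -0.53 to 0.01, limma adjusted p = 0.623). Libraries without overlap, KO lower, were found for 3 of 31 members (Aco1, Idh2 and Pdpr) and KO higher for 0. Without regard to direction 12.8% of all tested genes were free of overlap, and by direction 7.5% (KO lower) and 5.29% (KO higher). In Pdpr the gap was narrow, with KO replicate 3 at 12.5 FPKM and the lowest WT library at the same rounded value.

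Isocitrate dehydrogenase comes as the NAD-dependent enzyme of the cycle, built of the Idh3a, Idh3b and Idh3g products, and as NADP-dependent enzymes in the mitochondrion (Idh2) and the cytosol (Idh1). Idh2 showed the most negative difference among the members. It measured 312.3, 315.8 and 322.6 FPKM for WT against 258.5, 171.8 and 288.6 FPKM for KO. The WT hearts lay close together in this gene while the KO hearts spread widely, and each KO heart was below each WT heart. The difference was -0.42 ± 0.24 (95% interval -0.98 to 0.14, limma adjusted p = 0.716), and without KO replicate 2 it was -0.15 (limma adjusted p = 0.758). Idh2 lies on chromosome 7 (80094846 to 80115392, minus strand, GRCm38). Idh1 ran the other way, at 22.8, 19.2 and 15.1 FPKM for WT against 25.2, 22.5 and 17.2 FPKM for KO, and the groups overlapped (0.19 ± 0.18, limma adjusted p = 0.840). Idh3b stood at 133.5, 146.1 and 156.4 FPKM for WT against 140.0, 96.3 and 148.4 FPKM for KO. Idh3g, an X-linked gene, stood at 67.1, 79.9 and 73.4 FPKM for WT against 80.1, 62.9 and 86.5 FPKM for KO. Both regulatory subunits overlapped between the genotypes, as did the catalytic Idh3a (51.7, 53.9 and 65.7 FPKM for WT against 59.2, 44.9 and 68.6 FPKM for KO).

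The 2-oxoglutarate dehydrogenase complex joins Ogdh, Dlst and Dld, of which Dld is shared with PDH. Ogdh was among the steadiest members, at 232.9, 256.0 and 266.3 FPKM for WT against 228.9, 209.1 and 240.9 FPKM for KO (-0.14 ± 0.16, limma adjusted p = 0.871). Dlst, the succinyltransferase, fell into separate levels that cut across genotype. It was at 21 FPKM in WT replicate 1 and 16.6 FPKM in KO replicate 2, and between 40.7 and 46.7 FPKM in the other 4 hearts. With 1 low heart in each group its difference was -0.14 ± 0.47, with a 95% interval from -1.24 to 0.96, so its size is only loosely known. Dld averaged 109.5 ± 6.98 FPKM for WT against 103.0 ± 23.6 FPKM for KO.

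Succinyl-CoA ligase pairs the common subunit Suclg1 with an ATP-forming (Sucla2) or a GTP-forming (Suclg2) partner. Sucla2 exceeded Suclg2 in every heart, by 3.95, 5.65 and 4.40 times in WT and 4.43, 4.78 and 5.77 times in KO replicates. Sucla2 itself was at 101.8, 111.9 and 120.3 FPKM for WT against 110.8, 92.3 and 129.5 FPKM for KO, with a difference of -0.00 ± 0.19. Suclg2 was at 25.8, 19.8 and 27.3 FPKM for WT against 25.0, 19.3 and 22.5 FPKM for KO. Fh1, the fumarase gene, averaged 60.6 ± 2.94 and 59.1 ± 12.1 FPKM, and Suclg1 36.8 ± 2.05 and 33.5 ± 7.51 FPKM (WT and KO, SD, n = 3 each). In all 4 genes the KO range covered most or all of the WT range.

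Among the shuttle enzymes the cytosolic malate dehydrogenase gene was the highest of all members. Mdh1 measured 346.1, 387.9 and 398.3 FPKM for WT against 390.6, 256.9 and 466.3 FPKM for KO. The KO group held both the lowest and the highest heart, which gave a difference of -0.05 ± 0.27 (limma adjusted p = 0.980). Mdh2, the mitochondrial form that also closes the cycle, was at 127.1, 145.1 and 157.1 FPKM for WT against 141.1, 115.2 and 150.0 FPKM for KO. Got1, the cytosolic aminotransferase, was at 77.9, 81.2 and 104.0 FPKM for WT against 83.1, 61.6 and 102.0 FPKM for KO. Got2, its mitochondrial partner, was at 119.1, 137.6 and 143.8 FPKM for WT against 117.6, 97.0 and 126.8 FPKM for KO (-0.22 ± 0.19, limma adjusted p = 0.827). The 4 enzymes overlapped between the genotypes. Mdh1 exceeded Mdh2 by 2.23 to 3.11 times and Got2 exceeded Got1 by 1.24 to 1.69 times over the 6 hearts, with no separation of KO from WT in either ratio.

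The PDH complex consists of E1 (Pdha1 and Pdhb), the E2 core (Dlat), the E3-binding protein (Pdhx) and Dld. Pdha1, which is X-linked, was at 219.1, 242.1 and 250 FPKM for WT against 222.9, 160.6 and 238.8 FPKM for KO (-0.20 ± 0.22, limma adjusted p = 0.860). KO replicate 3, the heart with the female pattern, lay within the range of the other hearts for this gene and for the X-linked Pdk3 (1.51 FPKM). The X-linked Idh3g, 1 of 9 members highest in this heart, was at 86.5 FPKM there and 80.1 FPKM or less elsewhere. Pdhb averaged 133.0 ± 11.7 FPKM for WT against 131.7 ± 19.2 FPKM for KO, with a difference of -0.01 ± 0.19. Dlat was at 42.9, 45.2 and 51.5 FPKM for WT against 52.5, 41.7 and 52.0 FPKM for KO, and Pdhx averaged 26.4 ± 3.95 and 23.6 ± 3.44 FPKM. None of the 4 was called, and all overlapped between the genotypes.

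PDH kinases phosphorylate and shut the complex. Pdk2 supplied 77.0% to 85.3% of the summed FPKM of Pdk1, Pdk2 and Pdk3 in each heart. It was at 66.3, 92.6 and 98.9 FPKM for WT against 80.4, 65.1 and 69.9 FPKM for KO (-0.23 ± 0.22, limma adjusted p = 0.845). WT replicate 1 lay among the KO hearts, and without it the difference was -0.45 with an unadjusted limma p of 0.0366 and an adjusted p of 0.568. Pdk1, a hypoxia-induced form, was at 16.5, 17.2 and 15.2 FPKM for WT against 14.0, 11.4 and 15.7 FPKM for KO (-0.24 ± 0.17, limma adjusted p = 0.783). Pdk3, X-linked like Pdha1, was low throughout, at 3.35, 1.42 and 1.88 FPKM for WT against 3.65, 3.32 and 1.51 FPKM for KO. Its 3 higher hearts were WT replicate 1 and KO replicates 1 and 2, and its difference was 0.30 ± 0.33 (95% interval -0.47 to 1.07, limma adjusted p = 0.862).

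The phosphatases reopen the complex. Pdp1, the calcium-activated catalytic subunit, took separate levels across genotypes as Dlst did, with KO replicate 2 low in both genes and a different WT heart low in each: 10.6, 3.96 and 10.7 FPKM for WT against 12.3, 4.15 and 10.1 FPKM for KO replicates 1 to 3. The low hearts were WT replicate 2 and KO replicate 2, and the difference was 0.08 ± 0.49 (95% interval -1.07 to 1.23). Pdp2, the other catalytic subunit, was nearly flat at 2.43, 2.43 and 2.77 FPKM for WT against 2.17, 2.26 and 2.57 FPKM for KO. The regulatory subunit Pdpr averaged 13.0 ± 0.75 FPKM for WT against 11.7 ± 0.648 FPKM for KO (-0.14 ± 0.13, limma adjusted p = 0.848). Summed kinases (Pdk1 to Pdk3) over summed catalytic phosphatases (Pdp1 and Pdp2) gave 6.62, 17.4 and 8.64 in WT and 6.78, 12.4 and 6.86 in KO hearts, so the high values were those of the hearts with low Pdp1.

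Pyruvate enters the matrix through a carrier made of the Mpc1 and Mpc2 products. Mpc2 had the highest difference after Pdk3, at 13.4, 16.6 and 19.9 FPKM for WT against 21.4, 14.1 and 24.7 FPKM for KO (0.26 ± 0.27, limma adjusted p = 0.855). Mpc1 averaged 96.2 ± 3.22 FPKM for WT against 100.6 ± 29.2 FPKM for KO (0.03 ± 0.25, limma adjusted p = 0.988). Without KO replicate 2 the differences were 0.33 for Mpc1 and 0.53 for Mpc2, with unadjusted limma p of 0.0436 and 0.0502 and adjusted p of 0.489 and 0.513. A copy named Mpc1-ps was listed at 27.7 to 51.0 FPKM, so reads may be split between it and Mpc1 and the level of Mpc1 is uncertain. Pcx, the pyruvate carboxylase gene, which refills the cycle with oxaloacetate, was low, at 4.50, 5.23 and 3.83 FPKM for WT against 3.95, 3.01 and 3.78 FPKM for KO (-0.28 ± 0.17, limma adjusted p = 0.740).

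The members varied together from heart to heart. KO replicate 2 was the lowest library in 25 of 31 members (80.6%), against 14.6% of all tested genes, and the highest in 0. WT replicate 3 was the highest in 15 and KO replicate 3 in 9 members, against 11.1% and 14.3% of all tested genes. The members' median deviation from each gene's mean, on the log2 scale, was -0.14, 0.09 and 0.22 in WT and 0.11, -0.42 and 0.16 in KO replicates 1 to 3. The summed FPKM of the members was 2593.2, 2850.2 and 2996.4 in WT and 2734.9, 2033.1 and 2984.5 in KO hearts. The clearest exceptions to the shared pattern were Idh1 and Pdk3, which were highest in KO replicate 1 and not low in KO replicate 2, as the map of deviations shows. Their correlations with the median of the other members over the 6 hearts were -0.36 and -0.51. Aco1, lowest in KO replicate 1, followed the others loosely (0.43), and no other member was below 0.5.

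**Figure D3:**
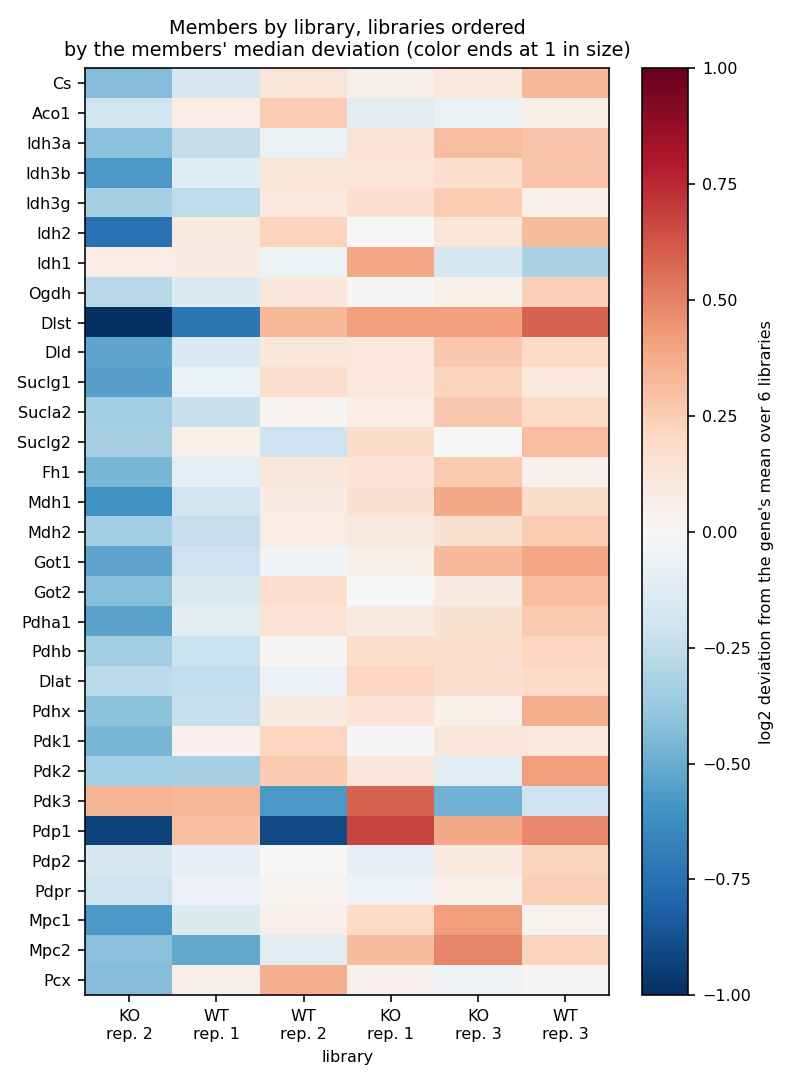
Deviation of log2(scaled FPKM + 0.5) from each gene's mean over the 6 hearts (colour, red above and blue below, ending at 1 in size), for the 31 members in rows and the hearts in columns ordered by the members' median deviation. The column of KO replicate 2 is blue in most rows, Idh1 and Pdk3 run against it, and Dlst and Pdp1 have 2 low hearts each.

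Cardiomyocyte markers moved with the module. The median log2 deviation of 10 cardiomyocyte markers, among them Myh6, Tnnt2 and Ryr2, was -0.19, 0.15 and 0.34 in WT and 0.05, -0.52 and 0.18 in KO replicates 1 to 3, which gives KO replicate 2 and WT replicate 1 as the lowest and WT replicate 3 as the highest, as for the members. KO replicate 2 was the lowest library in 9 of the 10 markers, and their summed FPKM ran from 16857.1 (WT replicate 1) to 25399.1 for WT and from 18344.3 (KO replicate 2) to 24970.5 for KO. Fibroblast markers ran the other way: the median of 7, among them Col1a1 and Postn, was 0.45, -0.33 and -0.62 in WT and 0.21, 0.64 and -0.24 in KO replicates, and their summed FPKM was 1019.6 to 2050.1 and 1200.6 to 2362.5. KO replicate 2 also had the highest atrial markers, with Myl7 at 25.2 FPKM against 4.80 FPKM or less, Myl4 at 8.45 FPKM against 1.62 FPKM or less and Sln at 4.75 FPKM against 1.01 FPKM or less, while Bmp10 was listed at 0 in every library. In bulk tissue fewer cardiomyocytes and less RNA per cardiomyocyte cannot be told apart, and the part of these markers in the members' levels was not tested. Markers of other cell types differed between the groups to varying degrees. Among blood-borne cells the median difference was -0.89 over 4 tested neutrophil markers (1 called by limma, S100a8), -1.52 over 3 B and plasma cell markers, -0.76 over 2 T cell markers and -0.56 over 5 red cell markers (0 called in the last 3 lists; 2, 1 and 0 with an unadjusted p under 0.05), and each of these markers was lower in KO. Brown fat is another tissue rich in mitochondria, and 2 of its 3 tested markers were higher in KO without overlap, Fabp4 (0.62 ± 0.19) and Cidea (0.48 ± 0.17), while Adipoq was not (-0.27 ± 0.63). None of these 3 was called by limma (smallest adjusted p = 0.372, 2 with an unadjusted p under 0.05). The defining gene Ucp1 was listed at 0 in every library, and Plin1 missed the filter (mean 0.354 FPKM). Fabp4 and Adipoq are not specific to brown fat, and their means were 155.4 and 1.39 FPKM. Of 5 endothelial, 6 macrophage, 5 smooth muscle and pericyte and 3 skeletal muscle markers 0 were called by limma (1 endothelial marker with an unadjusted p under 0.05), with median differences of 0.02, -0.19, 0.08 and -0.56. In the skeletal muscle list Ckmt2 and Acta1, at means of 1210.6 and 241.4 FPKM, are heart muscle genes too. The third, Tnnt3, was at 10.9 FPKM in WT replicate 1 and 2.95 FPKM in KO replicate 1, against 0.556 FPKM or less elsewhere. The part of the markers of these other cell types in the members' levels was not tested either. Without both hearts of lowest median cardiomyocyte markers (WT replicate 1 and KO replicate 2, chosen after the data were seen) the members' median difference was 0.02, with 16 above 0, 15 below and 0 called by limma (smallest adjusted p = 0.521, 1 member with an unadjusted p under 0.05).

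**Figure D4:**
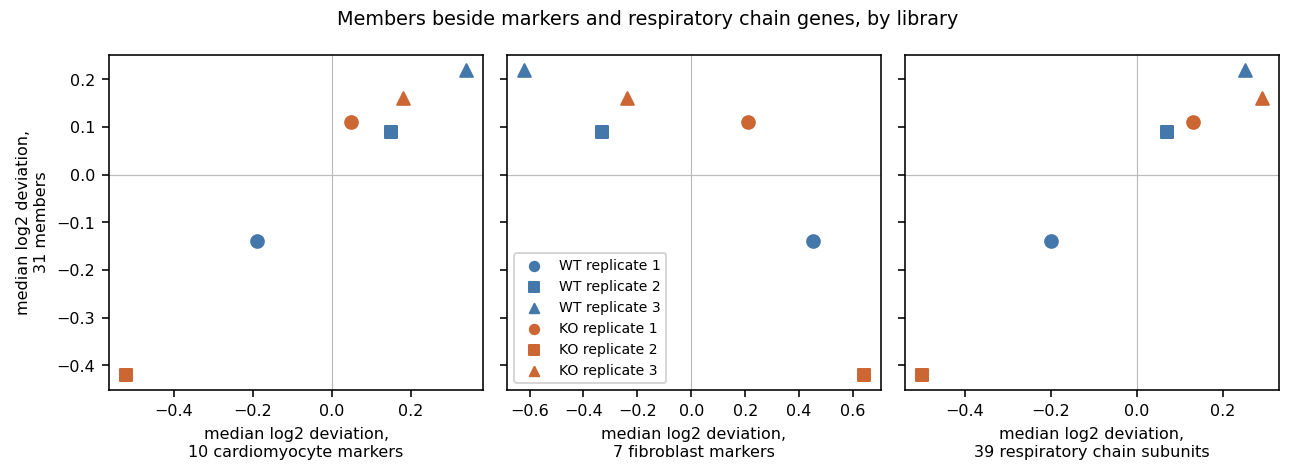
Each point is 1 heart (blue WT, orange KO), with the median log2 deviation of the 31 members on the vertical axis and that of 10 cardiomyocyte markers, 7 fibroblast markers or 39 nuclear respiratory chain subunits on the horizontal axes. Hearts line up upward with cardiomyocyte markers and respiratory chain genes and downward with fibroblast markers, and KO replicate 2 is at the end of each.

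Nuclear respiratory chain genes and fatty acid oxidation genes, which are fed by and feed the same cycle, likewise had their lowest median deviation in KO replicate 2 (-0.50 in each list) and the next lowest in WT replicate 1 (-0.20 and -0.24). Of 39 respiratory chain subunits 0 rose and 0 fell (median difference -0.07, 11 above 0, smallest limma adjusted p = 0.748, 0 with an unadjusted p under 0.05). The genes of smallest p were Ndufb10 (0.44 ± 0.28), Ndufa9 (-0.31 ± 0.20) and Atp5h (-0.24 ± 0.24). Of 20 beta-oxidation genes 0 were called by limma (median -0.05, 1 with an unadjusted p under 0.05). That gene was Cpt1a, a form of the mitochondrial entry step for fatty acids, at 19.7, 18.0 and 15.9 FPKM for WT against 25.5, 28.5 and 20.7 FPKM for KO (0.48 ± 0.13, limma adjusted p = 0.295). Cpt1b, the muscle form of that step, was higher in level (mean 70.6 against 21.4 FPKM for Cpt1a). Its groups overlapped, with a difference of -0.10 ± 0.19 (limma adjusted p = 0.934). KO replicate 2 had the highest Cpt1a of the 6 hearts although it was the lowest library in 16 of these 20 genes. Acads (-0.31 ± 0.24) and Echs1 (-0.23 ± 0.19) followed by p. Of 19 measured glycolysis and lactate genes 0 were called by limma (median -0.06, 1 with an unadjusted p under 0.05), with Hk1 at -0.37 ± 0.15, Pgam1 at 0.31 ± 0.14 and Eno3 at -0.36 ± 0.18 (limma adjusted p = 0.557, 0.602 and 0.661).

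Ratios within a heart do not depend on how libraries are scaled, and they set members against each other. Of the 465 pairs of members, the ratio separated all KO from all WT hearts in 68 (14.6%), against 9.48% of the ratios of a member to any other tested gene. Pairs share genes and hearts, so the counts are a description with no test, and the ratios named next were chosen after their values were seen. Idh2 took part in the most: its ratio was lower in all KO than in all WT hearts against 16 of the other 30 members. Idh2 over Mdh1 was 0.902, 0.814 and 0.810 in WT and 0.662, 0.669 and 0.619 in KO hearts, so KO replicate 2 stood with the other KO hearts here, as it did not in the levels. Mpc2 was higher in all KO hearts relative to 12 other members, and Idh3g and Dlat to 9 each. Within PDH, Pdha1 over Pdhb was 1.80, 1.83 and 1.72 in WT and 1.57, 1.47 and 1.66 in KO hearts, and Dlat over Pdhx was 1.90, 1.73 and 1.69 in WT and 2.01, 2.12 and 2.08 in KO hearts. For Aco1, Idh1, Dlst, Suclg2, Pdk3, Pdp1 and Pdp2 the ratio overlapped between genotypes against all 30 others.

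**Figure D5:**
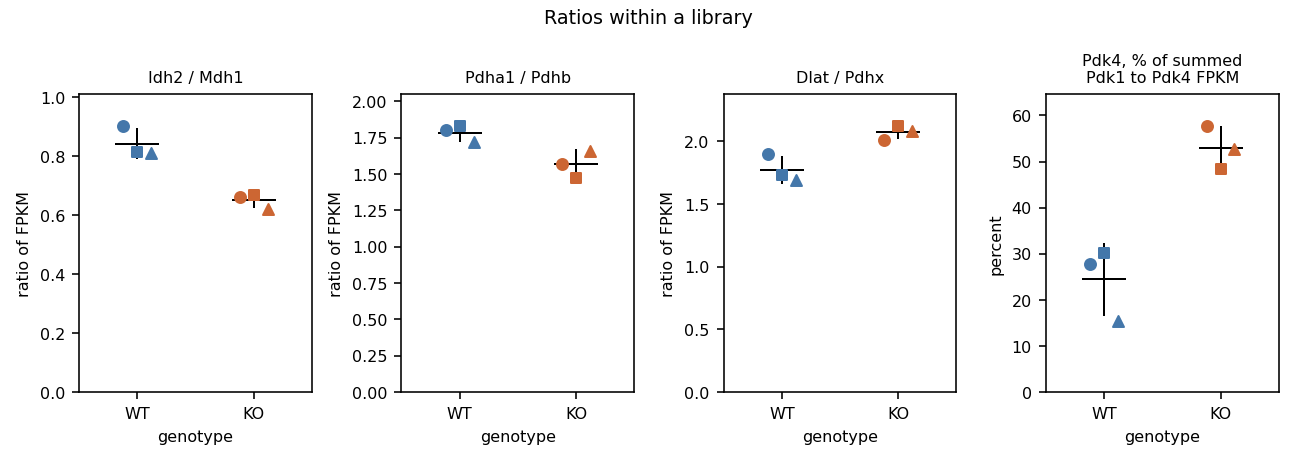
Ratios of FPKM within each heart for Idh2 over Mdh1, Pdha1 over Pdhb and Dlat over Pdhx, and Pdk4 as a percentage of the summed FPKM of Pdk1 to Pdk4, by genotype (points are hearts, black lines the mean ± SD, n = 3, axes from 0). KO and WT points do not overlap in any of the 4 panels, which were chosen after the values were seen.

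Genes of the same pathway that the list leaves out were not called either, and Pdk4 had the smallest p among them. Of 27 such genes 26 were tested, 0 rose and 0 fell (median -0.05), and 3 had an unadjusted limma p under 0.05. Pdk4, the kinase induced by fasting and fatty acids, was at 32.9, 48.1 and 20.9 FPKM for WT against 133.8, 74.5 and 97.1 FPKM for KO, without overlap (1.62 ± 0.33, limma adjusted p = 0.148). Its share of the summed FPKM of Pdk1 to Pdk4 was 24.4% ± 7.99 in WT and 52.9% ± 4.72 in KO hearts (SD, n = 3 each). Neither Pdk4 nor Pdk1, Pdk2 or Pdk3 was called. Slc25a22, a mitochondrial glutamate carrier gene, was at 2.39, 2.61 and 2.53 FPKM for WT against 4.91, 3.3 and 3.88 FPKM for KO (0.58 ± 0.19, limma adjusted p = 0.393). Nnt, whose enzyme makes mitochondrial NADPH as that of Idh2 does, was at 8.78, 5.79 and 8.00 FPKM for WT against 5.25, 0.722 and 2.00 FPKM for KO (-1.59 ± 0.52, limma adjusted p = 0.418). The C57BL/6J substrain is known for a deletion in Nnt, and the labels give the strain as C57BL/6 without a substrain. The part of substrain in the Nnt levels was not tested. The shuttle carriers Slc25a11, Slc25a12 and Slc25a13 differed by -0.10 ± 0.16, -0.05 ± 0.16 and -0.04 ± 0.33.

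Cofactor genes and transcriptional regulators of mitochondrial genes were likewise without calls. Lipoic acid and thiamine serve the PDH and 2-oxoglutarate dehydrogenase complexes, and of 10 tested genes for them 0 were called by limma and 0 had an unadjusted p under 0.05 (median -0.13). Among the genes of smallest p were Iba57 (0.36 ± 0.18) and Lipt1 (-0.34 ± 0.24), with limma adjusted p of 0.671 and 0.785. Of 15 regulators, which include Ppargc1a and Esrra, 0 were called by limma and 0 had an unadjusted p under 0.05 (median -0.02). The smallest p belonged to Esrrg (-0.28 ± 0.18), Nrf1 (0.29 ± 0.20) and Mef2a (-0.46 ± 0.37), with limma adjusted p of 0.762, 0.789 and 0.816.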

How the data were processed

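The deposited table holds FPKM per gene for 6 libraries, although the authors titled it as counts; the unit was read from the values, since 37.2% to 40.4% of them per library are not whole and totals differ. Bowtie 0.12.2 and the builds mm8 and mm9 are listed without a role, per the submitters' processing notes; for quantifier, annotation and strand the entry is: not given in the sources used here. Symbols came from GENCODE M21 identifiers (52403 of 52550 rows matched). Depth was estimated from single-transcript genes, as the modal value that 1 fragment adds to FPKM times length. It limits precision most for members of a few FPKM, and no counting interval was built.

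The filter kept genes that reached 0.5 FPKM in at least 3 libraries. Libraries were scaled by unweighted trimmed means of log2 ratios (trims 0.3 and 0.05, factors 0.949 to 1.075). Differences in log2(FPKM / factor + 0.5) were fitted with limma 3.58.1 in R 4.3.3, with genotype as the only term and a mean-variance trend, two-sided, adjusted by Benjamini-Hochberg over all tested genes. This scale understates the change of low genes. The code was tested on simulated data. An exact permutation test of 3 against 3 cannot go below p = 0.1 and was not used. FPKM printed per library are as deposited.

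Libraries were grouped by the genotype in their titles. Members and lists were chosen with earlier results of these data known. Every member is accounted for; values per library are given for the 6 members of smallest p in each direction, the 4 of highest level, isoenzyme pairs, and PDH kinases and phosphatases, and genes of smallest p in each related list are named, up to 3 a list; some results under this rule are not reported here. Dlst, Pdpr and the named ratios were singled out after their values were seen. Isoenzyme proteins, planned for comparison, were not analysed here. Alternatives were other scalings, filters, pseudocounts and variance settings, the replicate number as a block, and leaving out libraries.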

Additional observations from a re-analysis of the deposited data

How the results depend on the processing

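Under each of the 17 other settings run, 0 of 31 members were called by limma; at an unadjusted p under 0.05 there were 0 or 1. The members' median difference lay between -0.11 and -0.10 under the other scalings, filters, pseudocounts and variance settings and with the replicate number as a block, and between -0.20 and 0.09 when 1 library was left out. The sign of 13 members differed without KO replicate 2, of 7 without WT replicate 3 and of 4 or 5 without any other single library. Over all genes, the 55 called became 20 with no filter on low values, 12 to 36 when 1 library was left out, and 3 without both WT replicate 1 and KO replicate 2, a setting added after the data were seen. The causes were not tested, but fewer samples enter the last 2 settings. With the replicate block 42 genes were called. Deviations of same-numbered libraries from their group means correlated at 0.01, -0.04 and 0.18 across genes for replicates 1 to 3, and WT replicate 1 correlated best with KO replicate 2 (0.19), so the numbers were not taken as pairs. The 95% intervals ran from the narrowest in Aco1 (-0.53 to 0.01) to the widest in Pdp1 (-1.07 to 1.23). They are not adjusted for the number of genes tested, so a difference whose interval excludes 0 can still miss a call. Pdk4, outside the list, did so (1.62, 95% interval 0.84 to 2.40, limma adjusted p = 0.148). With 3 hearts per group, the lack of a call does not show that a member was unchanged.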
